A study of Mus musculus with 6 samples.

Results

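The 57 genes described here build and run mitosis, the step of the cell cycle in which duplicated chromosomes are pulled apart and the cell is divided. They were taken as a fixed list of symbols, with no measured value used as a rule, although earlier results of these data were known. Each was matched to its Ensembl identifier among the 54752 identifiers of the count table. By role, the list held 7 kinetochore genes, 5 spindle checkpoint genes, 4 genes of the chromosomal passenger complex, 6 genes of cyclins, CDK1 and CDC25, 5 genes around the anaphase-promoting complex and separase, 10 mitotic kinesins, 7 spindle assembly genes, 4 cytokinesis genes, 7 genes of mitotic chromosome structure and 2 transcription factors. Polo-like kinases were not part of the list. RNA was sequenced after rRNA removal from NIH/3T3, an immortal line of mouse embryonic fibroblasts, in 3 groups of 2 libraries, each treated for 72 h. The vehicle group received PBS, a second group received TGFB1 at 1 ng/ml with DMSO, and the last received TGFB1 at 1 ng/ml with BI6727 at 5 μM. BI6727, also called volasertib, inhibits the mitotic kinase PLK1, and TGFB1 is a cytokine that drives fibroblasts to make matrix and contract. The vehicle group received no DMSO, so TGFB1 and DMSO cannot be told apart in any comparison with vehicle.

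Most mitotic genes are transcribed late in the cell cycle, in G2 and M phase, and are repressed in resting cells. The DREAM complex represses them, whereas the MuvB core joined to B-Myb (Mybl2) and then FOXM1 activates them. Both act on the cell cycle genes homology region, or CHR, a short element near the start site, and many of the same promoters carry CCAAT boxes bound by NF-Y. The cells were measured in bulk, so fewer dividing cells and less of these RNAs per cell cannot be told apart.

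Promoter letters are shown first because they are what most of the list shares besides function. RefSeq promoter windows, from 250 bases before to 50 bases after the start on GRCm38.p6, were available for 48 of the 57 genes. CHR letters, TTTGAA or TTCGAA on either strand, were in the windows of 38 of these genes (79.2%). The same letters were in 16.0% of the 7088 tested genes with a window and in 21.7% of all 27025 genes of the promoter table. CCAAT on either strand was in 35 of the 48 (72.9%), against 43.5% of tested genes and 41.1% of all genes. Both were in 33 (68.8%), against 6.72% of tested genes and 8.61% of all genes. In 10 members both lay within the 100 bases just before the start. Of those, 6 are printed 5′ to 3′ on the strand of the gene, with the CHR and CCAAT letters in capitals (TTCAAA and ATTGG are the same letters on the other strand). They are Kif11 (chr19:37376282-37376381, plus strand), Cdc20 (chr4:118437344-118437443, minus), Prc1 (chr7:80294376-80294475, plus), Cdk1 (chr10:69352913-69353012, minus), Top2a (chr11:99024190-99024289, minus) and Espl1 (chr15:102296193-102296292, plus). Mybl2 (chr2:163054535-163054634, plus) is shown beside them because it had neither and was the member that rose. It was not alone in this. Nuf2, Nusap1, Kif18a and Mad2l1, which fell, and Birc5, Ncaph and Pttg1, which were not called, had neither in their windows. Further members, such as Anln and Ndc80, had letters in the window but none within the 100 bases.
Kif11: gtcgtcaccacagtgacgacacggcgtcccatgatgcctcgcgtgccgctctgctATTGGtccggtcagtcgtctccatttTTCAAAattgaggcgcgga
Cdc20: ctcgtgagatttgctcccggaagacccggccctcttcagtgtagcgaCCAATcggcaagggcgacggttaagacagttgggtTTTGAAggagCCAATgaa
Prc1: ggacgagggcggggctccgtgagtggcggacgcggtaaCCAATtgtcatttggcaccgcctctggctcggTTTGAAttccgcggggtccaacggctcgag
Cdk1: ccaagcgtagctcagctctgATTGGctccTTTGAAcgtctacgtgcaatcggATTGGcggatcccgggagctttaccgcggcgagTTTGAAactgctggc
Top2a: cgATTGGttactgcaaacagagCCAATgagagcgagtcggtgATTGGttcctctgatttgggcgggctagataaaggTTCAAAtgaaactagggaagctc
Espl1: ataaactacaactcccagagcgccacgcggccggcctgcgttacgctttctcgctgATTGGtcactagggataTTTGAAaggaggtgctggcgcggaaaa
Mybl2: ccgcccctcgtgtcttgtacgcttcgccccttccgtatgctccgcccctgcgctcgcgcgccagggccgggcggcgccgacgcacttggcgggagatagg
The CHR letters began 19 bases before the start in Kif11, 18 in Cdc20, 30 in Prc1, 23 in Top2a and 27 in Espl1. Cdk1 had them at 71 and at 15 bases before its start. Prc1 has another RefSeq start, and its CHR letters began 5 bases before that one. Of the printed bases, 9 of Cdc20, 26 of Prc1, 26 of Cdk1 and 27 of Espl1 lie inside the Gencode gene. For Kif11 and Mybl2, the bases checked after the RefSeq start were not found in a Gencode transcript of the gene. A match of letters is a description of the window, not a shown binding site.

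The libraries held between 18362378 and 24452153 counts on genes. Genes with a CPM of 10 or more, where CPM are counts divided by the library total, in more than 3 libraries were tested, which left 9518 genes, and all 57 members passed with at least 10 CPM in 6 of 6 libraries. Values below are normalized CPM, in which each library total is that of the tested genes after TMM scaling. All 8 fibroblast markers were detected in every library with a summed level of 6161 to 7870 CPM, and 3 of them fell with TGFB1 and DMSO and 5 with TGFB1 and BI6727 against vehicle. Their part in the results was not tested. Of markers of other cell types, the 5 epithelial genes summed to at most 0.612 CPM, the 4 leukocyte genes to at most 4.69 CPM and the 3 endothelial genes to at most 3.57 CPM. Replicates of TGFB1 with DMSO stood further apart than the others, since the log2 difference between replicates had an SD across all genes of 0.377 there, of 0.163 in vehicle and of 0.147 with BI6727. Over the members this SD was 0.329, 0.0943 and 0.125. The study's methods mention biological replicates, but their count of them does not match these libraries and they do not tie a library to a culture. The p-values thus measure the spread between these libraries, which may in part be technical.

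Per length, the level of the members in vehicle spanned from 3.22 RPKM for Kif14, a kinesin of the midzone and midbody, to 161 RPKM for Cdc20, the activator of the anaphase-promoting complex. The median was 27.1 RPKM. After Cdc20, the highest vehicle levels per length were those of Ube2c at 95.5 RPKM, Cdk1 at 65.7 RPKM, Ckap2 at 61.5 RPKM and Top2a at 59.0 RPKM. Together the members took 0.832% and 0.882% of all counts in the vehicle libraries. They took 0.692% and 0.609% in the libraries of TGFB1 with DMSO, and 0.614% and 0.617% in those of TGFB1 with BI6727. All 4 treated libraries thus held a smaller share than both vehicle libraries. Relative to the vehicle mean, the median log2 level of the members was -0.39 and -0.49 with DMSO, and -0.42 and -0.48 with BI6727, where the median of all genes lay between -0.019 and 0.0033. In these 4 libraries 53, 47, 54 and 55 of the 57 members were below their vehicle mean.

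**Figure D1:**
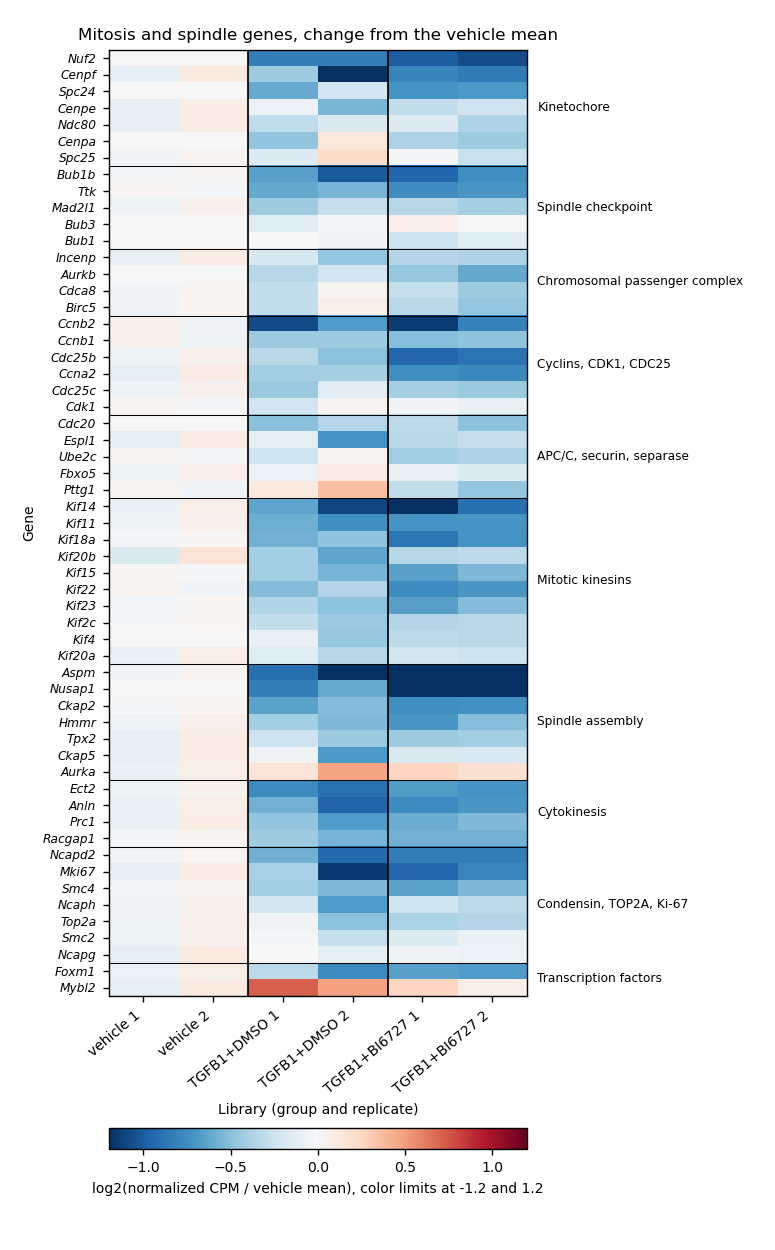
Heatmap of log2(normalized CPM / vehicle mean) for the 57 genes (rows, grouped by role) in the 6 libraries (columns), with blue below and red above the vehicle mean and color limits at -1.2 and 1.2. The treated columns are mostly blue, with medians between -0.39 and -0.49, and Mybl2 and Aurka are red in all 4 of them.

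The first comparison asks what TGFB1 with DMSO did to the mitotic genes of these fibroblasts. Mitotic RNAs were mostly lower than in vehicle, by modest amounts. Of the 57 members, 28 fell (49.1%), where 12% of all genes tested were lower at the same threshold, a Benjamini-Hochberg adjusted p below 0.05 over all genes in the quasi-likelihood test of edgeR, with no minimum fold. Only Mybl2 rose, against a background of 11% of all genes higher. The median log2 fold change of the members was -0.41, with an interquartile range from -0.57 to -0.24, whereas the median of all genes was -0.005. The log2 fold change was below 0 for 52 members. A sharper threshold, an adjusted p below 0.01 with a fold change above 2, was passed by Aspm alone, against 2.53% of all genes. Both DMSO libraries lay below both vehicle libraries for 41 members, against a background of 33.1%, and above them for Pttg1, Aurka and Mybl2, against 29.8%. The count of 28 moved with the libraries in the fit. It was 3 without vehicle replicate 1 or 2 (2.79% and 3.74% of all genes), 14 and 16 without BI6727 replicate 1 or 2 (6.81% and 6.92%), and 41 and 40 without DMSO replicate 1 or 2 (31.2% and 19.3%), where all 28 were included each time. In fits that left a library out, the lone library is assumed to vary like the other groups. The median stayed between -0.49 and -0.34 in every alternative.

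All 4 cytokinesis genes fell. Of all genes tested 12% fell, which is also the background for the counts of the other roles below. Ect2, the exchange factor that activates RhoA at the cleavage furrow, was at 126 and 134 normalized CPM in vehicle, 76.4 and 69.8 with TGFB1 and DMSO, and 81.9 and 79.4 with TGFB1 and BI6727. Its treated libraries lay far below vehicle, and its mean went from 130.0 ± 5.89 to 73.1 ± 4.68 (SD, n = 2). The log2 fold change of Ect2 was -0.83 ± 0.0973 (SE), with an adjusted p of 0.00136. Anln, the scaffold of the contractile ring, was at 327 and 366 normalized CPM in vehicle, 232 and 178 with DMSO and 205 and 214 with BI6727. Anln fell by 0.76 ± 0.139 in log2 terms (adjusted p = 0.00892), although its DMSO libraries differed more from each other than those of Ect2. Racgap1, a subunit of the centralspindlin complex, had 307 and 316 normalized CPM in vehicle, 232 and 212 with DMSO and 208.6 and 209.6 with BI6727. The log2 fold change of Racgap1 was -0.49 ± 0.0924 (adjusted p = 0.01). Prc1, which bundles the microtubules of the midzone, fell by 0.57 (adjusted p = 0.0116). The median of these 4 genes was -0.66.

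Of the 10 mitotic kinesins, the motors that slide and position spindle microtubules and chromosomes, 8 fell, against 12% of all genes tested. Both DMSO libraries lay below both vehicle libraries for all 10, against 33.1% of all genes. Kif11, the motor that pushes the spindle poles apart, was at 152 and 166 normalized CPM in vehicle, 106 and 95.2 with DMSO and 97.1 and 97.2 with BI6727. Its mean went from 159 ± 9.40 to 101 ± 7.70 normalized CPM (SD, n = 2), and Kif11 fell by 0.66 ± 0.100 in log2 terms (adjusted p = 0.00414). Kif18a, which limits the swings of chromosomes at the metaphase plate, had 52.6 and 53.7 normalized CPM in vehicle, 35.7 and 37.9 with DMSO and 29.1 and 32.3 with BI6727. Kif18a fell by 0.53 in log2 terms (adjusted p = 0.0171). The other kinesins that fell were Kif14, Kif15, Kif20b, Kif22, Kif23 and Kif2c, by 0.85 for Kif14, 0.36 for Kif2c and amounts in between for the rest. Kif4 and Kif20a did not pass. Kif20a, which carries the passenger complex to the midzone, was at 136 and 152 normalized CPM in vehicle, 130.0 and 114 with DMSO and 124 and 120.5 with BI6727, a log2 fold change of -0.24 (adjusted p = 0.148). The value of Kif20a is uncertain because 33.2% of its exonic bases overlap Cdc23 on the other strand and the strand setting of the counting is not given in the sources used here. The same holds for Ube2c (22.8%), Kif4 (15.1%), Ncapg (13.4%), Ccna2 (12.5%) and Prc1 (11.1%), which overlap exons of other genes on the opposite strand.

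Spindle assembly genes included Aspm, the member with the largest log2 fall in this comparison, and 4 of 7 fell. Aspm, which focuses microtubules at the spindle poles (chr1:139454772-139494091, plus strand, counted over its exons), was at 73.3 and 76.7 normalized CPM in vehicle, 40.03 and 23.4 with DMSO and 28.6 and 32.7 with BI6727. Its log2 fold change was -1.24 ± 0.231 (adjusted p = 0.0094), and its DMSO libraries differed from each other by more than those of most members. Nusap1, which stabilizes microtubules around chromosomes (chr2:119618298-119651244, plus strand), was at 151 and 150.3 normalized CPM in vehicle, 84.9 and 98.8 with DMSO and 62.6 and 64.2 with BI6727. Nusap1 fell by 0.71 ± 0.104 in log2 terms (adjusted p = 0.00346). Ckap2, a microtubule growth factor, was at 194 and 201 normalized CPM in vehicle, 127 and 138 with DMSO and 119.1 and 119.3 with BI6727, and fell by 0.58 (adjusted p = 0.00496). Hmmr also fell, by 0.47. Aurka, the kinase that matures centrosomes, did not follow the others, with 119.6 and 133 normalized CPM in vehicle, 141 and 176 with DMSO and 151 and 143 with BI6727. All treated libraries of Aurka lay above vehicle, but the log2 fold change of 0.33 ± 0.128 did not pass (adjusted p = 0.108). Tpx2, the activator of Aurka, had a log2 fold change of -0.34 (adjusted p = 0.0636), and Ckap5, a microtubule polymerase, a log2 fold change of -0.33 (adjusted p = 0.257).

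Kinetochore genes were divided. Nuf2, a subunit of the NDC80 complex that grips microtubule ends (chr1:169497934-169531464, minus strand), had the smallest adjusted p of the list. It was at 174 and 175 normalized CPM in vehicle, 98.3 and 97.9 with DMSO and 87.8 and 83.5 with BI6727, so the groups were far apart and replicates nearly equal. Its log2 fold change was -0.83 ± 0.0880 (adjusted p = 0.000888). None of its partners in the complex passed, with log2 fold changes of -0.24 for Ndc80, -0.41 for Spc24 and 0.04 for Spc25. Whether Nuf2 differed from these partners was not tested. Cenpf, a large protein of the outer kinetochore, was at 94.2 and 109.8 normalized CPM in vehicle, 75.9 and 41.9 with DMSO and 58.4 and 56.8 with BI6727. Its log2 fold change of -0.79 ± 0.248 was close to that of Nuf2 but missed the threshold (adjusted p = 0.0577), and its DMSO replicates differed widely. Cenpa, the histone H3 variant that marks centromeres, was at 236.2 and 236.5 normalized CPM in vehicle, 169.9 and 259 with DMSO and 183 and 175 with BI6727. The DMSO libraries of Cenpa lay on either side of vehicle (log2 fold change -0.14, adjusted p = 0.587). Cenpe, a kinesin that carries chromosomes to the plate, had a log2 fold change of -0.29 and did not pass.

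In the spindle checkpoint, which holds anaphase until chromosomes are attached, 3 of 5 genes fell. Bub1b, which encodes the BubR1 subunit of the mitotic checkpoint complex, was at 162 and 166 normalized CPM in vehicle, 105 and 81.7 with DMSO and 84.9 and 98.3 with BI6727, a log2 fold change of -0.82 ± 0.139 (adjusted p = 0.00674). Ttk, the kinase that starts the checkpoint signal, was at 54.1 and 53.1 normalized CPM in vehicle, 35.0 and 36.3 with DMSO and 32.0 and 33.0 with BI6727, a log2 fold change of -0.59 ± 0.107 (adjusted p = 0.00879). Mad2l1 fell by 0.35 (adjusted p = 0.0405). Bub1 and Bub3, which bind each other at the kinetochore, had log2 fold changes of -0.02 and -0.08, with 95% intervals from -0.23 to 0.19 and from -0.30 to 0.14. A fall of the size of Bub1b lay outside both intervals. None of the 4 passenger complex genes passed. Aurkb, its kinase, was at 133 and 135 normalized CPM in vehicle, 106 and 115 with DMSO and 97.7 and 87.4 with BI6727, a log2 fold change of -0.28 (adjusted p = 0.0819). Incenp, its scaffold, was at 147 and 166 normalized CPM in vehicle, 137 and 113 with DMSO and 123 and 121 with BI6727, a log2 fold change of -0.32 (adjusted p = 0.0965). For both genes the DMSO libraries lay below vehicle. Birc5, or survivin, and Cdca8, or borealin, which bring the complex to centromeres, had log2 fold changes of -0.10 and -0.12, and their DMSO libraries overlapped those of vehicle.

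Cyclins fell while their kinase did not pass. Ccnb1, the main mitotic cyclin, was at 92.4 and 85.5 normalized CPM in vehicle, 65.9 and 65.8 with DMSO and 62.5 and 63.6 with BI6727, and fell by 0.43 ± 0.0968 in log2 terms (adjusted p = 0.0186). Ccnb2 was at 37.6 and 35.3 normalized CPM in vehicle, 17.3 and 22.8 with DMSO and 16.5 and 20.7 with BI6727, and fell by 0.86 ± 0.181 (adjusted p = 0.015). Ccna2 and Cdc25b, a cyclin and the phosphatase that switches CDK1 on, fell by 0.40 and 0.41 (adjusted p = 0.0283 and 0.0284). Cdk1 was at 329 and 319 normalized CPM in vehicle, 277 and 331 with DMSO and 317 and 307 with BI6727. Its log2 fold change was -0.09, with a 95% interval from -0.35 to 0.17. Cdc25c, a second phosphatase of CDK1, had a log2 fold change of -0.28 (adjusted p = 0.17). Part of Ccnb1 cannot be told from its pseudogenes, since 23.4% of its 50-base windows occur in other genes.

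Among genes around the anaphase-promoting complex, Cdc20 fell. It was at 300.4 and 302 normalized CPM in vehicle, 213.5 and 236 with DMSO and 242 and 213.5 with BI6727, a log2 fold change of -0.42 ± 0.104 (adjusted p = 0.0265). Pttg1, or securin, which holds separase inactive, was at 68.1 and 64.9 normalized CPM in vehicle, 72.0 and 85.4 with DMSO and 53.8 and 48.2 with BI6727. The DMSO libraries of Pttg1 were above vehicle and the BI6727 libraries below it, but its log2 fold change in the first comparison, 0.24 ± 0.123, did not pass (adjusted p = 0.19). Ube2c, Fbxo5 and Espl1 had log2 fold changes of -0.09, 0.02 and -0.38, and none passed. Of the chromosome structure genes, Ncapd2 and Smc4 fell. Ncapd2, a subunit of condensin I, was at 179 and 187 normalized CPM in vehicle, 123 and 95.95 with DMSO and 102.9 in both BI6727 libraries, a log2 fold change of -0.74 ± 0.129 (adjusted p = 0.00719). Smc4, an ATPase shared by both condensins, was at 252 and 260.2 normalized CPM in vehicle, 194 and 177 with DMSO and 165 and 177 with BI6727, and fell by 0.47 (adjusted p = 0.0136). Its partner Smc2 had a log2 fold change of -0.14, Ncapg had -0.06 and Ncaph had -0.43, and none of these passed. Top2a, the topoisomerase that untangles sister chromatids, was at 509.5 and 554 normalized CPM in vehicle, 516 and 378 with DMSO and 408 and 416 with BI6727. Replicate 1 of DMSO was at the vehicle level and replicate 2 far below, and its log2 fold change of -0.25 did not pass (adjusted p = 0.261). Mki67, the proliferation antigen Ki-67, had a log2 fold change of -0.72 (adjusted p = 0.0563).

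The 2 transcription factors went opposite ways. Foxm1 was at 137 and 149.8 normalized CPM in vehicle, 114 and 84.1 with DMSO and 91.1 and 89.3 with BI6727, and fell by 0.53 ± 0.148 in log2 terms (adjusted p = 0.0408). Mybl2 was at 23.0 and 26.8 normalized CPM in vehicle, 41.0 and 34.8 with DMSO and 29.8 and 26.1 with BI6727. Mybl2 rose with TGFB1 and DMSO by 0.60 ± 0.151 (adjusted p = 0.028), and 19.3% of its 50-base windows occur in other genes. The call on Mybl2 was lost when only the 2 groups compared were fitted, when the replicate number was used as a block, and when either vehicle library or either BI6727 library was left out, with log2 fold changes between 0.47 and 0.73 over all alternatives.

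**Figure D2:**
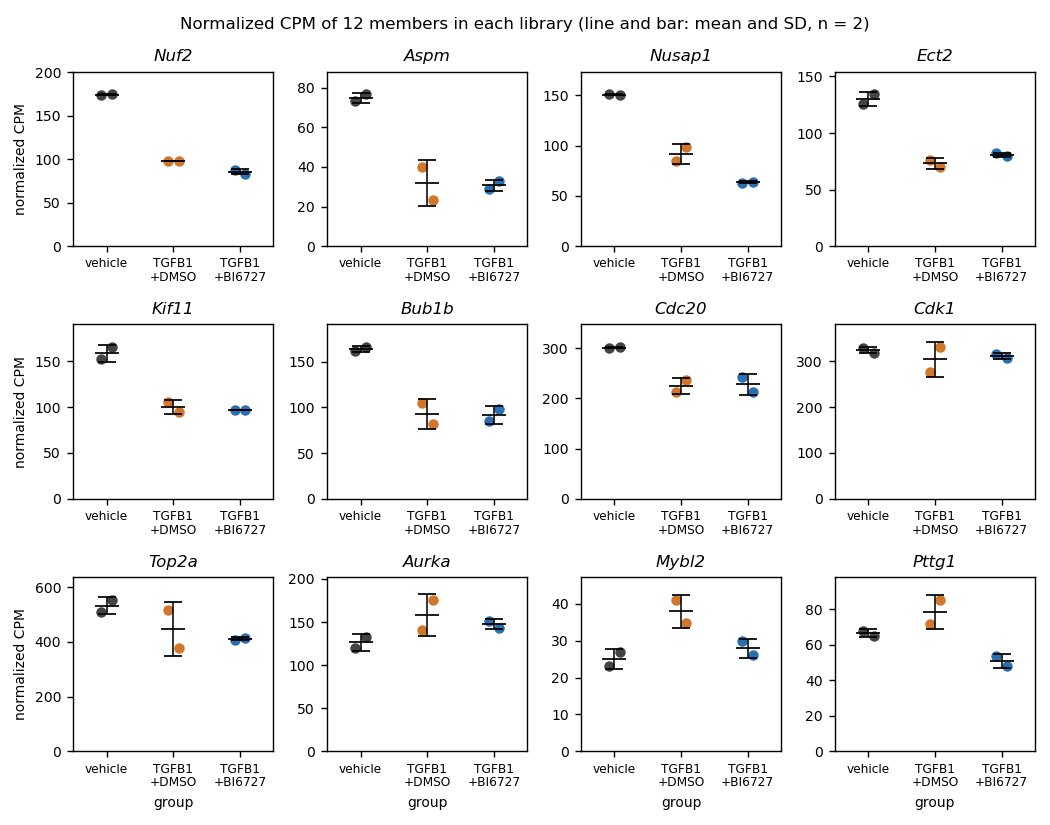
Normalized CPM of 12 of the genes in each library (points) with the mean (line) and SD (bar, n = 2), on axes that start at 0. Nuf2, Aspm, Nusap1, Ect2, Kif11, Bub1b and Cdc20 are lower in all 4 treated libraries than in vehicle, and Pttg1 is the gene whose DMSO libraries lie above and whose BI6727 libraries lie below vehicle.

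The second comparison asks what the PLK1 inhibitor added on top of TGFB1. None of the 57 members was called between TGFB1 with BI6727 and TGFB1 with DMSO by edgeR's test at an adjusted p below 0.05 or at the sharper threshold, as was none of all genes (0% lower at either threshold). At an unadjusted p below 0.05 there were 8 members lower (background 4.52% of all genes) and none higher (background 2.16%). They were Aurkb, Ccna2, Cdc25b, Ube2c, Pttg1, Kif22, Nusap1 and Mybl2. DESeq2 called 3 members, Cdc25b, Pttg1 and Nusap1, all lower with BI6727, where it called 0.389% of all genes lower. The median log2 fold change of the members was -0.11 against -0.003 for all genes, and 43 members were below 0. Both BI6727 libraries lay below both DMSO libraries for 20 members (background 17.1%) and above them for Bub3, Kif20b and Ect2 (background 17%). The 95% interval of every member lay within a 2-fold change in either direction, from a lowest bound of -0.92 for Pttg1 to a highest of 0.61 for Ckap5. The median distance from estimate to bound was 0.27. A change of more than 2-fold in any member with 5 μM BI6727 was therefore outside these intervals, whereas no smaller change passed the adjusted threshold.

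The largest differences in this comparison were in Pttg1, Nusap1 and Cdc25b. Pttg1 averaged 78.7 ± 9.49 normalized CPM (SD, n = 2) in the group with DMSO and 51.0 ± 3.97 in that with BI6727, and its log2 fold change was -0.63 with a 95% interval from -0.92 to -0.34 (adjusted p = 0.485). Nusap1 had 91.9 ± 9.87 and 63.4 ± 1.08 normalized CPM, a log2 fold change of -0.53 with an interval from -0.78 to -0.29 (adjusted p = 0.485). Cdc25b was at 102 and 90.9 normalized CPM with DMSO and at 66.7 and 69.3 with BI6727, a log2 fold change of -0.50 with an interval from -0.75 to -0.26 (adjusted p = 0.524). For these 3 genes all BI6727 libraries were below all DMSO libraries. Ccna2 was at 171 and 173 normalized CPM with DMSO and at 137 and 133 with BI6727 (log2 fold change -0.35, adjusted p = 0.606). Without DMSO replicate 1, edgeR called 13 members lower and 9 higher, but that fit also called 15.3% of all genes lower and 16.4% higher. Without DMSO replicate 2 it called 11 members lower and none higher, against 4.40% and 2.37% of all genes. The genes lower in both were 4, namely Ccna2, Cdc25b, Pttg1 and Nusap1. Cenpf, Aspm and Mki67 were called in opposite directions in these fits, so their direction between the inhibitor and DMSO depended on which DMSO library was used.

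The third comparison sets TGFB1 with BI6727 against vehicle. It shares the vehicle libraries with the first comparison, so the counts of these comparisons are not independent. Of the members, 33 fell (57.9%, background 13.2% of all genes), and none rose (background 11.3%) at an adjusted p below 0.05. At an unadjusted p below 0.05 there were 41 members lower (background 20%) and 0 higher (background 17.8%), and DESeq2 called 35 lower and 0 higher, against 14.9% and 13.0% of all genes. The median log2 fold change was -0.42, against 0.003 for all genes. Both BI6727 libraries lay below both vehicle libraries for 52 members (background 38.3%), and above them for Aurka alone (background 38.4%). The sharper threshold was passed by Nuf2, Nusap1 and Aspm (background 2.96% of all genes lower). Nuf2 fell by 1.02 ± 0.0884 in log2 terms (adjusted p = 0.00034), Nusap1 fell by 1.25 ± 0.105 (adjusted p = 0.00031) and Aspm fell by 1.29 ± 0.232 (adjusted p = 0.00763). The members called lower were 9 and 10 without vehicle replicate 1 or 2 and 7 and 13 without BI6727 replicate 1 or 2, where 3.54% to 4.39% of all genes were called lower. Without DMSO replicate 1 or 2 they were 49 each time and Aurka was called higher, where the share of all genes called lower was 27.5% and 27.4%.

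Of the members, 27 fell in both comparisons with vehicle, which share the vehicle libraries. Of all genes tested, 12% fell with DMSO and 13.2% with BI6727. The share of all genes that fell in both, or passed in neither, was not computed, so these overlaps have no background. Kif20b passed only with DMSO, and Cenpf, Spc24, Aurkb, Ube2c, Tpx2 and Mki67 passed only with BI6727, which does not show that they differ between the treatments. Among these, Aurkb fell by 0.53 in log2 terms with BI6727 (adjusted p = 0.00923) and Ube2c, the ubiquitin-conjugating enzyme of the anaphase-promoting complex, by 0.39 (adjusted p = 0.0398). A further 22 members passed in neither, among them Cenpa, Bub1, Bub3, Incenp, Birc5, Cdk1, Pttg1, Kif20a, Aurka and Top2a. For 13 members the BI6727 mean lay above the DMSO mean and below the vehicle mean. Aurka and Mybl2, whose DMSO mean was above vehicle, also had a BI6727 mean between those of vehicle and DMSO. The share of all genes with such means was not computed.

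**Figure D3:**
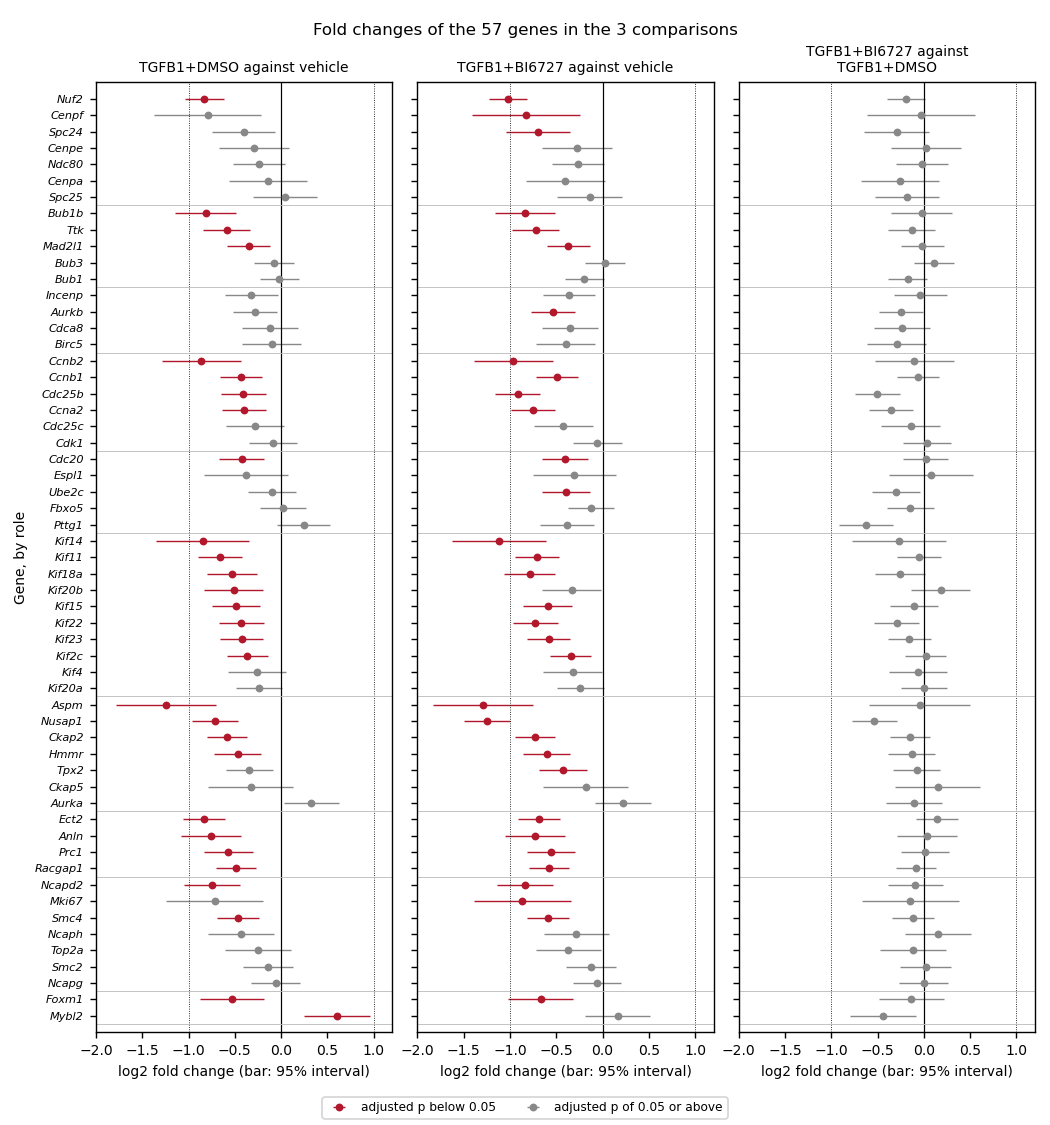
Log2 fold changes of the 57 genes (points) with 95% intervals (bars) in the 3 comparisons, with dotted lines at a 2-fold change and red marking an adjusted p below 0.05 in edgeR's quasi-likelihood test. In the left and middle panels 29 and 33 genes are red, and in the right panel none is red and every bar lies between the dotted lines.

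The spread between the DMSO libraries moved with gene length. Across the 57 members, the exonic length had a Spearman correlation of -0.62 with the log2 difference between DMSO replicate 2 and replicate 1, and of -0.66 across all 9518 genes. The same correlation was 0.34 for the vehicle replicates and 0.37 for the BI6727 replicates over the members. Genes share their libraries, so these correlations only describe the libraries. Cenpf, the longest member at 15433 bases, had 75.9 normalized CPM in DMSO replicate 1 and 41.9 in replicate 2, and Ccnb2, the shortest at 1531 bases, went the other way with 17.3 and 22.8. Over the members, length had a Spearman correlation of -0.35 with the log2 fold change of TGFB1 with DMSO against vehicle, and of -0.14 with that of TGFB1 with BI6727 against vehicle. The part of length in these results was not tested beyond a fit in which each library's trend on length was removed. In that fit 33 members were lower with TGFB1 and DMSO than with vehicle, including 25 of the 28, and 37 with TGFB1 and BI6727, including 32 of the 33. The share of all genes called lower was 16.4% and 18.4% in that fit. Aspm then had a log2 fold change of -1.06 against vehicle with DMSO. The members that fell in the first comparison had a median length of 5408.5 bases and a median vehicle level of 27.0 RPKM, against 4805.5 bases and 27.5 RPKM for the 28 not called.

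**Figure D4:**
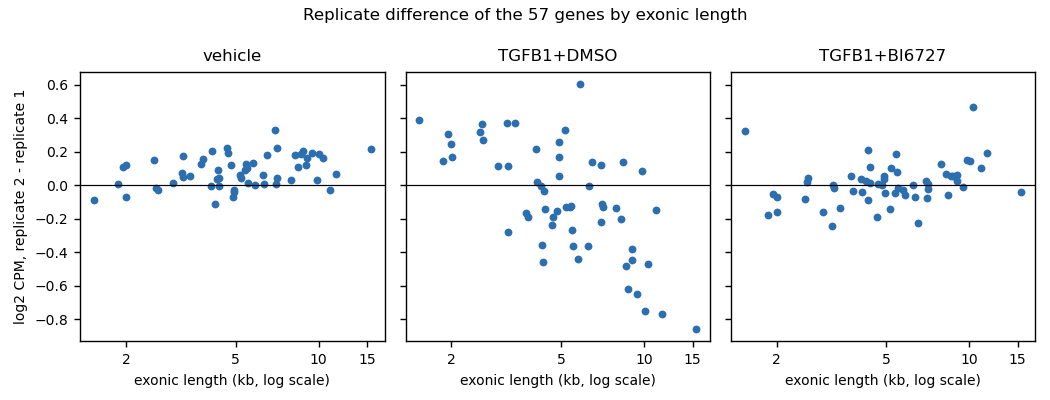
Difference in log2 CPM between replicate 2 and replicate 1 (vertical axis) against exonic length in kb (horizontal axis, log scale) for the 57 genes, with a panel for each group. The points slope down in the TGFB1 with DMSO panel (Spearman correlation -0.62) and not in the vehicle (0.34) or BI6727 (0.37) panels.

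The CHR letters did not separate the genes that fell from the others. They were in the windows of 20 of the 25 members that fell with TGFB1 and DMSO and had a window (80%), and of 18 of the 22 not called (81.8%). Both CHR and CCAAT letters were in 16 (64%) and 17 (77.3%) of these genes. Of the 10 members with both within 100 bases of the start, 4 fell and 6 were not called. Kif11, Cdc20 and Prc1 of the printed sequences fell, whereas Cdk1, Top2a and Espl1 did not pass.

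Other genes of the division cycle were read from lists made for this description. With TGFB1 and DMSO against vehicle, 12% of all genes tested fell and 11% rose at the same threshold. The share that fell was 18.2% of the further mitosis genes tested, 11.6% of the replication genes and 16.7% of the cohesin genes. It was 6.67% for the anaphase-promoting complex list and 6.25% for the DREAM and MuvB list. Of 67 further mitosis genes, 66 were tested, 12 fell and 2 rose with TGFB1 and DMSO against vehicle, with a median log2 fold change of -0.17. Ckap2l, a spindle protein, fell by 0.87 (adjusted p = 0.00272) and Cenpm, a centromere protein, by 0.91 (adjusted p = 0.0076). Of 43 DNA replication genes tested of 45, 5 fell and 5 rose, with a median of -0.04. Tk1, the thymidine kinase of S phase, fell by 0.67 (adjusted p = 0.00568) and Lig1, the replicative ligase, by 0.61 (adjusted p = 0.00498). Of 12 cohesin genes, the rings that hold sister chromatids together, 2 fell, with a median of -0.35: Smc1a by 0.83 (adjusted p = 0.00447) and Rad21 by 0.50 (adjusted p = 0.0151). Of 15 tested subunits and partners of the anaphase-promoting complex out of 16 listed, Cdc23 fell by 0.53 (adjusted p = 0.0224) and none rose. Ube2s, its chain-extending enzyme, had a log2 fold change of 0.51 (adjusted p = 0.0549). Of 16 genes of the DREAM and MuvB list, 1 fell and 3 rose, with a median of -0.10. Cdkn1a, the CDK inhibitor p21, rose by 0.86 (adjusted p = 0.00294), and Mybl1, the sister gene of Mybl2, by 0.71 (adjusted p = 0.0077). With BI6727 against vehicle, Cdkn1a was 0.85 higher on the log2 scale (adjusted p = 0.00277). None of these genes passed between TGFB1 with BI6727 and TGFB1 with DMSO, as was so for all genes tested.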

How the data were processed

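RNA-seq libraries of NIH/3T3 cells, 2 in each of 3 groups, were grouped and numbered from the sample labels. The authors removed rRNA, sequenced single-end reads of 50 bases, mapped them to mm10 with Subjunc and counted them on Gencode M20 genes with featureCounts (Subread 1.6.4), and deposited the raw counts per gene without normalization. The strand setting is not given in the sources used here. The totals of 18362378 to 24452153 counts per library set the counting precision. No column of another sample was present.

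The filter was that of the study's methods, a minimum of 10 CPM in more than 3 libraries. The genes left were tested by the quasi-likelihood method of edgeR 4.0.16 under R 4.3.3, with TMM scaling and no covariate. The 6 libraries entered 1 fit, which had 3 residual degrees of freedom, and p-values were adjusted by Benjamini-Hochberg over 9518 genes. The authors used DESeq2 1.22.2. Calls were made at an adjusted p below 0.05, and at 0.01 with a fold above 2. The SE is the log2 fold change over the square root of F, and log2 CPM used a prior count of 1. No exact permutation test was made, because 0.333 is its smallest p with 2 libraries in each group. Chi-square per degree of freedom between replicates was 7.46, 82.3 and 6.53 for vehicle, DMSO and BI6727, so replicates differed by more than sampling noise. The test was also run on simulated counts that gave every group the same spread per gene, unlike the DMSO libraries here. That run cannot show how the p-values behave with such libraries.

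The members, the gene lists and the rules were chosen with earlier results of these data known. Library values were printed for members past the sharper threshold in any comparison and, in each role, for the 2 with the smallest adjusted p for TGFB1 with DMSO against vehicle and the 1 with the highest level per length. From the other lists the 2 with the smallest adjusted p were named. Other members were named after their values were seen. Among them, Cdc25b and Ccna2 had library values printed for BI6727 and DMSO although the rule did not choose them. Overlap used the exons of the count table, shared 50-base windows used Gencode M21 transcripts, and promoter sequences were those of RefSeq. Alternatives were DESeq2 1.42.0, its size factors, other filters, only the 2 groups compared, each library left out, the replicate number as a block, and offsets for length from a lowess of span 0.3. The last together with the block, and a crossed block, were added after seeing the data.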

Additional observations from a re-analysis of the deposited data

How the results depend on the processing

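Under 14 alternatives to the reported fit, the median log2 fold change of the members stayed below 0 in the 3 comparisons. It lay between -0.49 and -0.34 for TGFB1 with DMSO against vehicle and between -0.16 and -0.05 for BI6727 against DMSO. For BI6727 against vehicle it lay between -0.49 and -0.41. Leaving out each library gave medians from -0.49 to -0.42 in the last.

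For TGFB1 with DMSO against vehicle, the 28 members lower at an adjusted p below 0.05 became 14 when only the 2 groups compared were fitted and 3 to 41 when each library was left out. The member passing the sharper threshold became 0 with only those groups and with the replicate block, and 0 to 5 with a library left out, and the 1 higher became 0, 0 and 0 to 3. With the replicate number as a block, 20 and 27 members were lower against vehicle with DMSO and BI6727, and all were among the reported ones. In that fit 9.15% and 10.3% of all genes were lower, and no result changed its direction. With only the 2 groups compared, 6.64% of all genes were lower with TGFB1 and DMSO than with vehicle. For the fits that left a library out, the shares of all genes are given with the first comparison above. Those shares were larger where more members were called, so these counts do not show a change particular to the members. Deviations of same-numbered libraries from their group means were correlated across all genes tested. They had r = -0.11 for vehicle with DMSO, 0.047 for vehicle with BI6727 and -0.26 for DMSO with BI6727. Over the members alone r was -0.52, -0.066 and -0.35. The numbers were not taken to pair the samples. A fit with the DMSO numbers crossed was added after seeing the data. There 31 and 34 members were lower against vehicle with DMSO and BI6727, and 0 with BI6727 against DMSO. The share of all genes called was not computed for that fit.

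For BI6727 against DMSO, 0 members lower became 3 with DESeq2, 2 with no filter, 1 with length offsets and 0 to 13 with a library left out. For BI6727 against vehicle, the 33 lower became 7 to 49 and the 3 past the sharper threshold 0 to 4 with a library left out. Of all genes in the fit, 0.389% were lower between BI6727 and DMSO with DESeq2, 0.490% with no filter and 0.231% with length offsets. For fits that left a library out, the shares of all genes given above were largest where most members were called. These counts thus do not show a change particular to the members. The causes of the changes in count were not tested.

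Of all 57 members, Cenpf, Aspm and Mki67 were called against their reported direction in any of the 14 alternatives, each between BI6727 and DMSO without DMSO replicate 1, at 0.46, 0.39 and 0.28. For TGFB1 with DMSO against vehicle, leaving out a library gave log2 fold changes from -0.47 to 0.12 for Cenpa and -0.21 to 0.0264 for Cdk1. For BI6727 against DMSO the ranges were -0.53 to 0.0626 for Cenpa, -0.41 to 0.46 for Cenpf, -0.20 to 0.17 for Bub1b, -0.18 to 0.11 for Incenp, -0.28 to 0.10 for Ccnb2, -0.0840 to 0.16 for Cdk1, -0.0730 to 0.11 for Cdc20, -0.14 to 0.0320 for Kif11, -0.10 to 0.10 for Kif20a, -0.25 to 0.0502 for Aurka, -0.39 to 0.39 for Aspm, -0.16 to 0.23 for Anln, -0.27 to 0.10 for Ncapd2, -0.34 to 0.13 for Top2a and -0.35 to 0.10 for Foxm1. Kif20a was at -0.0100 with DESeq2 and its size factors, and Anln at -0.0418 with length offsets and at -0.0424 with those and the block. Reads from opposite strands could not be separated for Kif20a, Ube2c, Kif4, Ncapg, Ccna2 and Prc1, where 33.2% to 11.1% of exonic bases overlap another gene. With 2 libraries a group, the 95% interval of a member between BI6727 and DMSO reached a median of 0.27 (log2) to either side.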
